A study of Mus musculus with 6 samples.

Results

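The mitochondrial carrier family (SLC25) was examined in a mouse blood cell line, Ba/F3, with and without induction of an ETV6::FRK fusion. Its members were taken as every protein-coding row of the deposited table whose symbol begins with Slc25a and a number. They came to 38 of the 14238 genes in the table, and to 38 of the 47 protein-coding genes with such a symbol in the RefSeq gene table of GRCm38.p6; the other 9 were not analysed here. Of the 38 members, 37 passed the low-count filter, and Slc25a41, with 3 to 9 reads per library, did not.

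Carriers of this family are nuclear-encoded proteins of the inner mitochondrial membrane, with a few in other membranes. Each moves a narrow set of solutes, such as ADP and ATP, phosphate, carboxylic acids, amino acids, cofactors or iron, between the cytosol and the matrix. In growing blood cells they link glycolysis and nucleotide and amino acid synthesis in the cytosol to respiration in the matrix.

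Ba/F3 is an established interleukin-3-dependent mouse pro-B cell line. Every library came from cells that carry the fusion in a retroviral Tet-On system, with the transcription factor ETV6 and the tyrosine kinase FRK as partners. Induced cells received 500 ng/ml doxycycline and controls received none (0 ng/ml), with RNA taken after 48 h for 3 libraries of each. The titles of the induced libraries also carry DOXp and IL3n, and those of the controls DOXn and IL3p, so effects of doxycycline, of the fusion and of what IL3 marks in those titles cannot be told apart. Replicates 1, 2 and 3 carry the prefixes EF1, EF2 and EFPC in both groups, and each induced library was also set against the control of the same prefix, called pairs 1, 2 and 3 here. The labels do not say whether the libraries came from separate cultures or from 1 clone, so the p-values rest on a spread that may be technical.

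Library totals ran from 30970019 to 43177842 counts. The pair of EFPC libraries stood apart in the size of the response. Etv6, the mouse gene of a fusion partner, had 81.2 to 94.6 CPM (counts scaled by library size) in the controls and 259, 230 and 120 CPM in induced replicates 1 to 3, so replicate 3 was the nearest to the controls. Values without that library are therefore given beside the results whose call or size it moves most. The erythroid genes of the marker list also stood apart as a sum. This sum was 87.9 to 285 CPM in the controls. In induced replicates 1 to 3 it was 114, 95.0 and 1042 CPM. The globin genes Hba-a1 and Hbb-bs made up most of the last value, at 583 and 388 CPM. Klf1 moved less, with 43.4 to 60.5 CPM in the controls and 48.1, 32.6 and 71.2 CPM after induction. The part of this sum in the carrier values was not tested. Of 12 pro-B and B lineage markers only Cd79a and Cd79b have a row. They summed to 12.3, 16.9 and 13.7 CPM in the controls against 6.38, 5.75 and 13.8 CPM after induction. Of the T and NK markers none has a row. Lyz2, Mpo and Itgam, of the monocyte and neutrophil list, each overlapped between the groups. So did Il3ra of the hematopoietic list, at 34.4, 55.0 and 26.2 CPM in the controls against 41.2, 51.2 and 40.0 CPM after induction. Ptprc and Csf2rb of the same list were higher in every induced library than in any control. Ptprc, the common leukocyte antigen, had 288 to 294 CPM in the controls against 365, 381 and 470.4 CPM after induction, with no overlap. Csf2rb, the shared receptor chain for interleukin-3, had 886 to 947 CPM against 3691, 3739 and 1306 CPM. Gata2, of the mast cell and basophil list, had 996 to 1017 CPM against 652, 668 and 1194 CPM. Its replicate 3 lay on the other side of the controls. Other rows of that list did not all go this way. Hdc had 1.18 to 2.27 CPM against 9.45, 6.36 and 1.87 CPM. Fcer1a had 0.0498 to 0.384 CPM against 0.760, 3.15 and 0.158 CPM, so both were higher in induced replicates 1 and 2. Ms4a2 went with Gata2, at 2.09 to 2.33 CPM against 1.29, 1.72 and 5.72 CPM. The part of these markers in the carrier values was not tested.

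The family's summed transcript level was lower in the induced cells. The sum of the 3 members most abundant over the 6 libraries was lower, and that of the other members was not. In TPM, a unit corrected for transcript length, the 38 members summed to 3894, 3549 and 3782 in the controls, in the order of the replicates, against 3157, 3016 and 3255 after induction. The groups did not overlap, and the mean went from 3742 ± 176 to 3143 ± 120 TPM (SD, n = 3 each). Slc25a5, Slc25a3 and Slc25a4 alone went from 2384 ± 138 to 1772 ± 63.4 TPM, and the other members together from 1358 ± 138 to 1370.5 ± 59.4 TPM. These 3 genes held 65.3%, 65.5% and 60.4% of the family's TPM in the controls and 55.9%, 56.8% and 56.5% in the induced libraries. Slc25a4 is among the 3 by its mean over all 6 libraries, 272 TPM. In the induced libraries its mean was 199 TPM, below Slc25a39 at 234 TPM and Slc25a1 at 210 TPM. Its place among the 3 thus rests on the control values, which also enter the fall of their sum. The sums are a description of these libraries and carry no test. In bulk RNA, fewer cells of a type and less RNA per cell cannot be told apart.

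**Figure D1:**
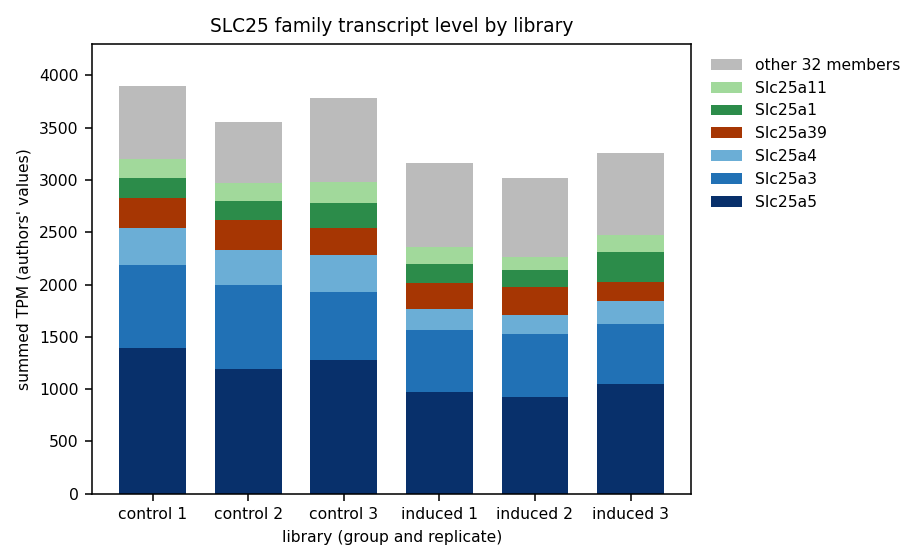
Summed TPM of the 38 SLC25 members in each of the 6 libraries, stacked by member, with the 6 most abundant members in colour and the remaining 32 in grey. The 3 blue segments (Slc25a5, Slc25a3 and Slc25a4) are shorter in each induced library than in each control, while the sum of the other segments shows no such shift.

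Over the members as a whole, fold changes lay in both directions. By edgeR's quasi-likelihood test with adjustment over all genes, 0 of the 37 tested members passed an adjusted p of 0.05, as did 0 of all 13260 genes tested (0%), and limma-voom gave 0 and 0. At an unadjusted p under 0.05 edgeR had 4 members higher and 6 lower, where the shares over all genes were 9.34% and 8.23%. DESeq2, the test behind the authors' table, called 906 of 13122 genes (6.90%), with 4.25% higher and 2.65% lower. Among the members it called Slc25a38 higher and Slc25a4 and Slc25a5 lower, a share close to that of all genes. With the replicate pair as a block DESeq2 called 11.1% of genes, and Slc25a22 higher and Slc25a10 lower were added to those 3 members, which makes 5. The median log2 fold change by edgeR was -0.01 over the members and -0.01 over all tested genes, with 18 positive and 19 negative members.

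Within the pairs, 12 members were lower in all 3 and 5 were higher in all 3, against 25.8% and 21.2% of all tested genes. Groups did not overlap in 6 members that were lower and 3 that were higher in the induced libraries, against 13.0% and 11.1% of all tested genes. Of the single libraries, induced replicate 3 bore most on the counts of calls. Without it edgeR called 2 members, Slc25a4 and Slc25a22 (6.68% of all genes), and DESeq2 called 9 (17.6%). Without control replicate 1, 2 or 3, DESeq2 called 1, 2 and 6 members (1.99%, 4.43% and 10.9% of all genes). Without induced replicate 1 or 2 it called 1 and 2 members (2.63% and 2.64%). Without pair 1, 2 or 3 it called 0, 1 and 7 members (0.477%, 1.10% and 21.8%), and edgeR called 0, 0 and 5 (0%, 0% and 16.2%).

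**Figure D2:**
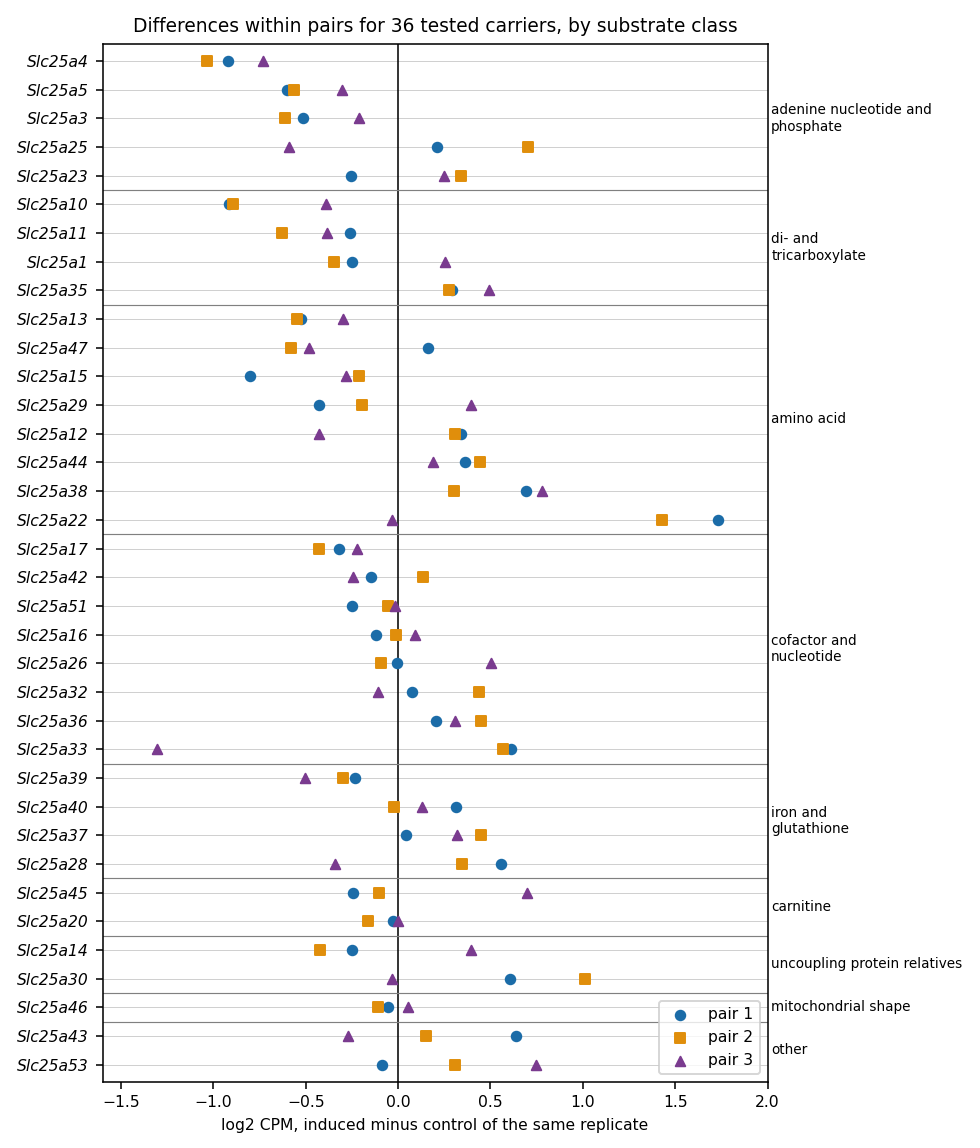
Difference in log2 CPM between each induced library and the control of the same replicate, for 36 of the 37 tested members in 9 substrate classes. Points left of the line at 0 are lower in the induced library. Slc25a4, Slc25a5 and Slc25a3 lie left of the line in all 3 pairs, Slc25a38 lies right of it in all 3, and Slc25a22 and Slc25a33 have pair 3 far from pairs 1 and 2.

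Adenine nucleotide and phosphate carriers had the lowest median fold change of the substrate classes. Of 5 tested members of this class, 3 were lower in all pairs and DESeq2 called 2 lower and 0 higher, with a class median of -0.47 on the log2 scale. Over all tested genes 25.8% were lower in all pairs and DESeq2 called 2.65% lower. Slc25a4 encodes the ADP/ATP carrier that predominates in heart and muscle and exchanges matrix ATP for cytosolic ADP (chromosome 8, 46207168 to 46211062, GRCm38.p6). Its level was 260.0, 264 and 234 CPM in the controls against 137.5, 129 and 141 CPM after induction, each in the order of the replicates. Every induced library lay below every control, and replicate 3, far from the others for Etv6, was not so here. Slc25a4 fell by DESeq2, with a log2 fold change of -0.88 (SE 0.144, adjusted p = 5.04e-07), while edgeR gave -0.90 with an adjusted p of 0.127. The differences were -0.92, -1.03 and -0.73 in pairs 1 to 3. The DESeq2 call held with any single library left out and was lost without pair 1 (adjusted p = 0.282), and edgeR called it without induced replicate 3 (adjusted p = 0.0197) and without pair 3 (adjusted p = 0.00663).

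Slc25a5 encodes the ADP/ATP carrier of proliferating cells (chromosome X, 36795597 to 36798808) and was the most abundant member, at 1134 TPM over the 6 libraries. Its values were 994, 929.7 and 818 CPM in the controls against 656, 630.3 and 663 CPM after induction, again with no overlap. The log2 fold change was -0.48 by DESeq2 (SE 0.152, adjusted p = 0.0317) and -0.49 by edgeR (adjusted p = 0.191), so that the fall passed DESeq2 only. The DESeq2 call was lost without control replicate 1 or 2 (adjusted p = 0.355 and 0.0843), without induced replicate 1 or 2 (0.180 and 0.235) and without pair 1 or 2 (0.999 and 0.585), while edgeR called it without pair 3 (adjusted p = 0.0462). Of the 1644 distinct stretches of 50 bases in its GENCODE transcripts, 33.8% also occur in transcripts of 9 other annotated genes, against none for Slc25a4, so the Slc25a5 counts depend on how shared reads were treated.

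Slc25a3, the phosphate carrier that also brings copper into the matrix, had 669, 740.2 and 487 CPM in the controls against 468, 484 and 420.3 CPM after induction. The groups did not overlap, but control replicate 3 was close to induced replicate 2. Its log2 fold change of -0.45 (SE 0.214) did not pass DESeq2 (adjusted p = 0.209), and it passed without control replicate 3 (log2 fold change -0.60, adjusted p = 0.00524) and without pair 3 (-0.55, adjusted p = 0.0108). The calcium-regulated ATP-Mg and phosphate carriers Slc25a23 and Slc25a25 had log2 fold changes of 0.11 and 0.10 by edgeR, with pairs of both signs.

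**Figure D3:**
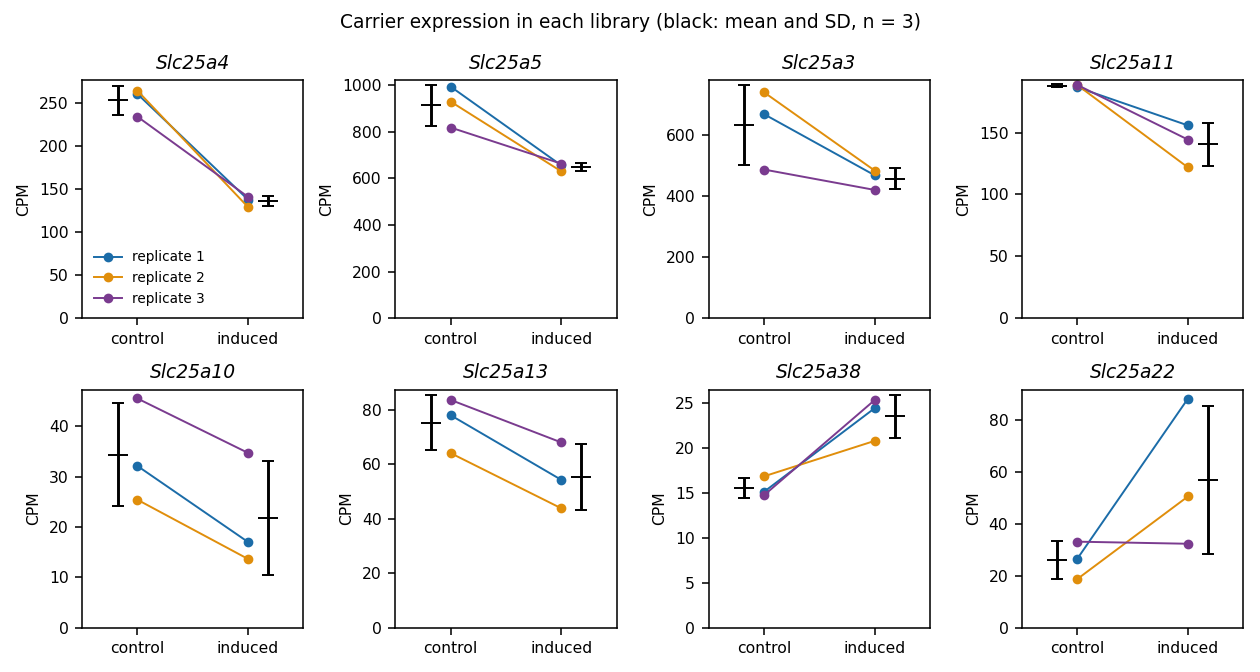
CPM of 8 members in each library, with lines joining the control and the induced library of the same replicate and black marks for the mean and SD of 3 libraries. The lines of Slc25a4, Slc25a5, Slc25a3, Slc25a11, Slc25a10 and Slc25a13 fall in all 3 pairs and those of Slc25a38 rise in all 3, while Slc25a22 is higher in induced replicates 1 and 2 and level in replicate 3.

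The promoter windows of the members that DESeq2 called with or without the block were read from the RefSeq table of GRCm38.p6, which matched 29 of the 38 members. The 250 bases before the annotated start are shown for Slc25a4, Slc25a5 and Slc25a38, the members called without the block, and for the one of 3 annotated Slc25a22 starts whose window holds a motif searched. Capitals mark matches to CCGGAA, the core bound by factors of the ETS family to which ETV6 belongs, to GAAANNGAA, a core of the interferon-stimulated response element, and to GGGGCGGGG, the GC box. Both strands were searched, and the ETS, interferon, GC box and NRF1 motifs were shortened to these letters after the windows had been seen.
Slc25a4, chr8:46211063-46211312, minus strand: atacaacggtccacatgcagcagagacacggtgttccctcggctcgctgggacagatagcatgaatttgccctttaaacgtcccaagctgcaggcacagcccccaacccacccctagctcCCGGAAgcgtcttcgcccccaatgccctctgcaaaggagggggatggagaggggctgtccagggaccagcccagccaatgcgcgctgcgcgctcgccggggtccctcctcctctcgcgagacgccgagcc
Slc25a5, chrX:36795347-36795596, plus strand: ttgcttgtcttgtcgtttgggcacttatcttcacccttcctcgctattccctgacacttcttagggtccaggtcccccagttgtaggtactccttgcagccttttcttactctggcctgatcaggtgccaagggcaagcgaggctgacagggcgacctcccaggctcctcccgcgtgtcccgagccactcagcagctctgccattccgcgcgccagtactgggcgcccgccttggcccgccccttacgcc
Slc25a38, chr9:120110132-120110381, plus strand: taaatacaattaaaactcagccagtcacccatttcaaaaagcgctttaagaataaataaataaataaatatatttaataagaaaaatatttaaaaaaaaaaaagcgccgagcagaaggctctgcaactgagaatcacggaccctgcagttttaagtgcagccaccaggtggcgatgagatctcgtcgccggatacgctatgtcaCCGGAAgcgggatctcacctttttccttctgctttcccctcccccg
Slc25a22, chr7:141435376-141435625, minus strand: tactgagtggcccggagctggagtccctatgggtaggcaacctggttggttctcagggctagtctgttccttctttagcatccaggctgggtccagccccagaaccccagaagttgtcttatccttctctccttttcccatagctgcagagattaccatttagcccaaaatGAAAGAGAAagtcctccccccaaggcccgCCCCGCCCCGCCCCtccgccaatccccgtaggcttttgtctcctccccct
The ETS core lay 130 bases before the Slc25a4 start and 46 bases before the Slc25a38 start, and occurred in 9 of the 29 members, against 16.9% of 17491 protein-coding genes. The interferon core lay 79 bases before this Slc25a22 start and occurred in Slc25a15, Slc25a22 and Slc25a43, against 7.94% of protein-coding genes. A GC box began 50 bases before the same Slc25a22 start and another 45 bases before it, overlapping the first, and 3 members held one (15.8% of protein-coding genes). The E-box CACGTG was in 6 of the 29 members (7.61% of protein-coding genes), the STAT motif TTCNNNGAA in 1 (7.65%), the cyclic AMP response element TGACGTCA in 2 (2.2%), and GCGCATGCG, bound by NRF1, in 0 (2.19%). The Slc25a5 window held none of the 7 motifs, nor did that of Slc25a10, called with the block only and not printed. A match is a description of the letters in the window and not a binding site.

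Of 4 tested carriers of di- and tricarboxylates, 2 were lower and 1 higher in all 3 pairs, against 25.8% and 21.2% of all tested genes. DESeq2 called none of the 4 without the block and 1 lower with it (4.73% of all genes). Slc25a10 exchanges malate and succinate for phosphate (chromosome 11, 120491837 to 120501161). It had 32.1, 25.4 and 45.6 CPM in the controls against 17.0, 13.6 and 34.7 CPM after induction. Each induced library lay below its own control, by -0.91, -0.89 and -0.39 on the log2 scale, although the groups overlapped. The fall passed DESeq2 with the block (log2 fold change -0.72, adjusted p = 0.0123) and not without it (-0.64, SE 0.397, adjusted p = 0.372). Without induced replicate 3 the unblocked DESeq2 value was -1.15 (adjusted p = 0.00218), and edgeR called it without pair 3 (-0.90, adjusted p = 0.0226). The DESeq2 value was -0.38 without control replicate 3 (adjusted p = 0.637) and -0.39 without induced replicate 2 (adjusted p = 0.762).

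Slc25a11, the oxoglutarate and malate carrier of the malate-aspartate shuttle, had 187, 188.5 and 188.5 CPM in the controls against 156, 122 and 144 CPM after induction. The controls had an SD of 1.08 CPM (n = 3) and all lay above the induced libraries, but its log2 fold change of -0.40 (SE 0.170) did not pass DESeq2 (adjusted p = 0.141, and 0.0920 with the block). Slc25a1, the citrate exporter that feeds lipid synthesis, had 184, 183 and 200.2 CPM in the controls against 155, 144 and 238 CPM after induction. It was lower in pairs 1 and 2 and higher in pair 3, with a log2 fold change of -0.06 (SE 0.246) by DESeq2, and this sign turned when induced replicate 1 or 2 was left out (0.03 and 0.08). Without induced replicate 3 it was -0.33 (adjusted p = 0.142). Slc25a35 was near the low end of the family, at 1.72 to 2.20 CPM in the controls and 2.11 to 3.11 CPM after induction, and higher in each pair without a call.

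Amino acid carriers split in direction. Of 8 tested members, 2 were higher and 2 lower in all pairs, and DESeq2 called 1 higher, or 2 higher with the block. Over all tested genes 21.2% were higher and 25.8% lower in all pairs, and 4.25% were called higher, or 6.40% with the block, so the counts in all pairs were near those shares. Slc25a38 carries glycine into the matrix for haem synthesis (chromosome 9, 120110377 to 120126093). It had 15.1, 16.8 and 14.7 CPM in the controls against 24.4, 20.8 and 25.3 CPM after induction. All induced libraries lay above all controls, and replicate 3 was as high as the others. Slc25a38 rose by DESeq2, with a log2 fold change of 0.61 (SE 0.182, adjusted p = 0.0190), while edgeR gave 0.595 with an adjusted p of 0.161. The DESeq2 call was lost without control replicate 1 (adjusted p = 0.248), without induced replicate 1 (0.178) and without pair 1, 2 or 3 (0.999, 0.0962 and 0.0774).

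Slc25a22 imports glutamate together with protons (chromosome 7, 141429749 to 141437874) and had the largest positive fold change of the tested members. It had 26.5, 18.7 and 33.1 CPM in the controls against 88.1, 50.4 and 32.3 CPM after induction. Induced replicates 1 and 2 were above every control, whereas induced replicate 3 lay within the control range. EdgeR gave a log2 fold change of 1.13 (adjusted p = 0.209) and DESeq2 1.14 (SE 0.396), which did not pass without the block (adjusted p = 0.0538) and passed with it (1.07, adjusted p = 0.0309). Pairs 1 to 3 differed by 1.73, 1.43 and -0.04. Without induced replicate 3 the DESeq2 value was 1.43 (adjusted p = 6.16e-04), without control replicate 3 it was 1.36 (adjusted p = 0.0311), and without pair 3 it was 1.64 (adjusted p = 7.32e-08). Without induced replicate 1 it was 0.67 (adjusted p = 0.380), and without pair 1 it was 0.68 (adjusted p = 0.999).

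The aspartate and glutamate carriers of the malate-aspartate shuttle, Slc25a12 and Slc25a13, had differences of opposite sign in pairs 1 and 2. Slc25a13, the form prominent in liver, had 78.0, 64.0 and 83.6 CPM in the controls against 54.2, 43.8 and 68.0 CPM after induction, and was lower in each pair by -0.52, -0.55 and -0.30. Its log2 fold change of -0.43 (SE 0.237) did not pass DESeq2 (adjusted p = 0.308, and 0.0543 with the block), and passed without induced replicate 3 (-0.60, adjusted p = 0.0379), while without induced replicate 2 it was -0.28 (adjusted p = 0.689). Slc25a12, the form prominent in muscle and brain, had 125, 103 and 126 CPM in the controls against 158, 128 and 93.8 CPM after induction, with pairs of 0.34, 0.31 and -0.43. The groups overlapped, and its log2 fold change of 0.12 by DESeq2 turned to -0.08 without induced replicate 1 and was 0.29 without induced replicate 3 (adjusted p = 0.368) and 0.03 without control replicate 2. Slc25a44, a carrier of branched-chain amino acids, was higher in all pairs, from 33.6 ± 4.89 to 42.1 ± 2.16 CPM (SD, n = 3) with no overlap, and the ornithine carrier Slc25a15 was lower in all pairs, from 13.8 ± 2.07 to 10.3 ± 2.32 CPM. Neither passed a test on all libraries (DESeq2 adjusted p = 0.301 and 0.380). The basic amino acid carrier Slc25a29 and Slc25a47 were at 1.78 to 3.38 CPM and 0.303 to 0.494 CPM.

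Carriers of cofactors and nucleotides had no call by DESeq2 in either fit, over 9 tested members with a class median of -0.01 by edgeR. Over all genes DESeq2 called 6.90%, or 11.1% with the block, so a lack of calls among so few members is near those shares. Slc25a17, which carries coenzymes into peroxisomes, had 63.7, 66.0 and 60.0 CPM in the controls against 51.1, 49.1 and 51.5 CPM after induction. The groups did not overlap, and the log2 fold change of -0.31 (SE 0.139) did not pass DESeq2 (adjusted p = 0.180). The pyrimidine nucleotide carrier Slc25a36 was higher without overlap, at 70.7 ± 3.91 CPM in the controls and 88.5 ± 8.58 CPM after induction (SD, n = 3). It did not pass DESeq2 (adjusted p = 0.195). Slc25a33, the other pyrimidine nucleotide carrier, is named after its values were seen. It had 21.9, 26.7 and 23.0 CPM in the controls against 33.4, 39.7 and 9.26 CPM after induction. Induced replicates 1 and 2 were above all controls and induced replicate 3 below them, with pairs of 0.61, 0.57 and -1.31, and the difference between pairs was not tested. The NAD carrier Slc25a51, the coenzyme A carrier Slc25a42, the S-adenosylmethionine carrier Slc25a26, the folate and FAD carrier Slc25a32, and Slc25a16 had log2 fold changes between -0.10 and 0.12 by edgeR.

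Iron and glutathione carriers, the fatty acid branch and the remaining members had no call by DESeq2 in either fit. The shares over all genes were 6.90% and 11.1% with the block, and these classes are small. Slc25a39, a carrier that brings glutathione into the matrix and the most abundant of its class, had 267.5, 312 and 213 CPM in the controls against 227, 253 and 150.0 CPM after induction. It was lower in each pair, by -0.31 on the log2 scale in DESeq2 (SE 0.267, adjusted p = 0.561), with overlapping groups. This value was -0.12 without induced replicate 3 and -0.18 without control replicate 2 (adjusted p = 0.781 and 0.818). The mitoferrins Slc25a37 and Slc25a28, which bring iron into the matrix, had pair differences of 0.04, 0.45 and 0.32 and of 0.56, 0.35 and -0.34. Slc25a20, the carnitine and acylcarnitine carrier of fatty acid oxidation, had 35.5, 36.6 and 33.6 CPM in the controls against 34.8, 32.7 and 33.6 CPM after induction. These values lay close together, with a DESeq2 value of -0.05 on the log2 scale (SE 0.144) and an adjusted p of 0.900.

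Slc25a30, a relative of the uncoupling proteins, had 30.8, 22.6 and 36.5 CPM in the controls against 46.8, 45.6 and 35.6 CPM after induction. As for Slc25a22, induced replicates 1 and 2 were above all controls and induced replicate 3 within them. Its log2 fold change of 0.53 (SE 0.250) did not pass DESeq2 (adjusted p = 0.209), and passed without pair 3 (0.81, adjusted p = 0.00208), while without pair 2 it was 0.32 (adjusted p = 0.894). Slc25a46, an outer membrane protein of mitochondrial shape, had 78.4, 73.4 and 90.2 CPM in the controls against 75.5, 68.2 and 93.5 CPM after induction, and DESeq2 gave -0.01 on the log2 scale (SE 0.204). Slc25a43, a member of unassigned substrate, had 4.31, 4.54 and 5.49 CPM in the controls against 6.74, 5.04 and 4.55 CPM after induction. Both of these had overlapping groups and no call by either tool, and without induced replicate 3 their DESeq2 values were -0.15 and 0.31 (adjusted p = 0.651 and 0.512). Slc25a14, Slc25a40, Slc25a45 and Slc25a53 had pairs of both signs, with log2 fold changes between -0.10 and 0.28 by edgeR.

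Genes that act with the carriers were examined as lists. Of 46 tested genes in 4 lists, DESeq2 called 5 lower and 0 higher (2.65% and 4.25% of all genes), and 8 lower and 0 higher with the block (4.73% and 6.40%), while edgeR called 0. Without induced replicate 3 edgeR called 1 of the 46, which was higher. Without pair 3 it called 9, of which 1 was higher and 8 lower. The shares of all genes in either direction were 6.68% and 16.2%. In the list of the import route that inserts carriers into the inner membrane, 10 of 13 tested genes were lower and 0 higher in all 3 pairs, with a median of -0.30, against 25.8% and 21.2% of all tested genes. The chaperones of the intermembrane space Timm8a1, Timm8b and Timm13 fell by DESeq2, with log2 fold changes of -0.56 (adjusted p = 0.00862), -0.46 (adjusted p = 0.0196) and -0.48 (adjusted p = 0.0181). Timm13 had 70.8, 77.4 and 68.0 CPM in the controls against 49.5, 51.0 and 52.5 CPM after induction. Every induced library was below every control for all 3 genes. The receptor and channel subunits Tomm22 and Tomm40 were added with the block (adjusted p = 0.0370 and 0.0338). Timm9 and Timm10 of the same list had no call, with DESeq2 log2 fold changes of -0.15 and 0.11 (adjusted p = 0.624 and 0.795).

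Of the 3 tested relatives without a Slc25a symbol, Mtch2, a carrier-like insertase of the outer membrane, fell by DESeq2 from 148 ± 8.14 to 105 ± 9.38 CPM (SD, n = 3, log2 fold change -0.47, adjusted p = 0.0467). Ucp2, an uncoupling protein, had 162 ± 8.04 and 148 ± 17.9 CPM and no call. Among 24 tested genes of other mitochondrial transport, DESeq2 called 1, the outer membrane channel gene Vdac1, which fell from 328 ± 33.4 to 225 ± 4.25 CPM (log2 fold change -0.53, adjusted p = 0.0156). Over all genes DESeq2 called 6.90% in either direction and 2.65% lower. The 1 call among these 24 is near those shares, and Mtch2 was 1 call among 3. The malate dehydrogenase genes Mdh1 and Mdh2 of the shuttle list were at -0.64 and -0.44 on the log2 scale by DESeq2 (adjusted p = 0.0576 and 0.0595), and Mdh2 fell with the block (adjusted p = 0.0315). Mcu, the calcium uniporter pore gene, had 55.3, 61.5 and 48.3 CPM in the controls against 100.3, 103 and 45.3 CPM after induction, so induced replicates 1 and 2 were above the controls and replicate 3 below them. It did not pass DESeq2 (adjusted p = 0.301).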

How the data were processed

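RNA for 6 libraries was sequenced after a stranded mRNA library preparation, per the labels' protocols. Per the submitters' processing notes HISAT2, DESeq2 and mm10 were used; no source at hand gives versions, the counting program, the annotation or the use of strand. The authors deposited read counts per gene without normalization, and TPM. Their table also holds log2 expression, a score column of signed fold change, a mean signal and p-values by the authors, used only to check the refit; the deposited FPKM were not used. A DESeq2 refit without a block matched the deposited log2 fold changes for all genes within 1e-06. Every library has at least 1 read for each listed gene, so genes at 0 were not analysed here.

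Counts were fitted on the whole table in R 4.3.3 with edgeR 4.0.16 (TMM, filterByExpr, quasi-likelihood test, group as only term, Benjamini-Hochberg adjustment over all tested genes, threshold 0.05), DESeq2 1.42.0 and limma 3.58.1. The steps were run on simulated counts with the same spread setting for every gene. That simulation had no pair effect and no outlying library, so it does not show how the tools do on these data. A prior count of 2 preceded log2 within pairs. Libraries differed by far more than sampling noise (chi-square per degree of freedom of at least 48.1). Deviations from the group means correlated by 0.174, 0.342 and 0.352 within replicates 1 to 3, and the shared prefixes were taken to pair the libraries. Control 1 with induced 2 had 0.149 and control 2 with induced 1 had 0.0992. Pairs with EFPC on 1 side only had -0.397 to -0.183. These values thus set EFPC apart more clearly than they part EF1 from EF2. Positions came from the RefSeq table of GRCm38.p6 and shared sequence from GENCODE release M21. Members, lists and alternatives were chosen with earlier results of these data known. Values are given in full for members called by edgeR or DESeq2 with or without the block, members with at least 5 CPM, the same sign in all 3 pairs and a median difference of at least 0.5, the 6 highest by TPM, and the highest of each class. No interval was computed for the counts, whose errors cover these libraries only. The values of 1 tested member are not reported here, although it is included in the counts.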

Additional observations from a re-analysis of the deposited data

How the results depend on the processing

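The count of SLC25 members called was 0 in edgeR, and stayed 0 with the replicate block, RLE scaling, no low-count filter, a minimum mean of 1 CPM and in limma-voom. It was 3 with DESeq2 and 5 with DESeq2 and the replicate block, and ran from 0 to 5 when single libraries or pairs were left out of edgeR. The DESeq2 count ran from 0 to 9 when they were left out of DESeq2, an alternative chosen after seeing the data. For the 46 tested genes of all the lists beside the family, the count was 0 in edgeR and 5 with DESeq2. It was 8 with DESeq2 and the replicate block, and 0 to 9 with libraries or pairs left out of edgeR. Beyond Slc25a10 and Slc25a22, the block changed no DESeq2 call of a member. The members' median log2 fold change was -0.01, 0.046 with a minimum mean of 1 CPM, and -0.060 to 0.034 with libraries or pairs left out. The number of members with the same sign in all pairs was 17, and 19 to 32 with a pair left out, where fewer pairs are needed. The family's share of the TPM total differed by -0.0599 percentage points between induced and control libraries, by -0.0695 to -0.0523 with a library left out, and by 0.00127 without Slc25a3, Slc25a4 and Slc25a5. Of 16 members given in full, 5 changed sign when libraries or pairs were left out, none of them called in any fit. With edgeR and DESeq2 in turn, Slc25a1 ran from -0.33 to 0.074 and from -0.33 to 0.078, Slc25a12 from -0.090 to 0.33 and from -0.083 to 0.35, Slc25a20 from -0.097 to 0.0088 and from -0.079 to 0.0067, Slc25a43 from -0.064 to 0.42 and from -0.056 to 0.43, and Slc25a46 from -0.16 to 0.086 and from -0.15 to 0.090. The cause of these changes was not tested. With 3 libraries a group, of which induced replicate 3 stood apart, the precision rests on few libraries.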

Other observations

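Close relatives within the family were set against each other as ratios of TPM, chosen after the values were seen. The ratio of Slc25a4 to Slc25a5 was 0.254, 0.276 and 0.278 in the controls, by replicate, against 0.204, 0.199 and 0.206 after induction. Every induced library had a lower ratio than every control, a log2 difference of -0.41, with the smallest p that an exact two-sided permutation test of 3 against 3 allows (p = 0.1, adjusted p = 0.5 over 5 ratios). The test leaves out the pairing of the libraries and could not pass the threshold, so the values are a description of these libraries. In addition, 33.8% of the Slc25a5 stretches of 50 bases are shared with other genes. The ratio of Slc25a12 to Slc25a13 was 1.55, 1.55 and 1.45 in the controls and 2.81, 2.72 and 1.35 in the induced libraries, so induced replicates 1 and 2 stood above the controls and replicate 3 below them (exact permutation p = 0.4, adjusted p = 0.667). The ratio of Slc25a39 to Slc25a40 was lower in each pair, by -0.59, -0.33 and -0.61 on the log2 scale (exact permutation p = 0.3). The ratios of Slc25a28 to Slc25a37 and of Slc25a33 to Slc25a36 had pairs of both signs (exact permutation p = 0.9 and 0.8). With CPM in place of TPM the Slc25a4 to Slc25a5 difference was -0.41 as well.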
